A study of Mus musculus with 33 samples.

Results

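The 9 genes Saa3, Lrg1, Mt1, Mt2, Serpina3f, Serpina3g, Serpina3n, Tmem252 and Car4 were followed through RNA-seq of sorted mouse bone marrow cells. They were taken by name from 38899 genes listed in all 4 deposited tables, having been picked for large rises after irradiation or after ablation of blood cells. The genes were thus selected on their levels in those 2 comparisons, which are given as a description, with no test. Values are FPKM, fragments scaled to gene length and to a total for each library. A difference is between group means of log2(FPKM + 1) unless said otherwise. Saa3 and Lrg1 encode secreted acute phase proteins, Mt1 and Mt2 metallothioneins and the Serpina3 genes protease inhibitors. Tmem252 and Car4 belong to none of those families, and Serpina3n rose in neither of the comparisons named by the choice.

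Acute phase proteins are secreted after tissue injury, mainly by the liver, when cytokines of the IL-6 and IL-1 families act through STAT3, C/EBP and NF-kappa B factors. Metallothioneins are small cysteine-rich proteins that bind zinc and copper, and their genes respond to metals through the factor MTF1 and to glucocorticoids. In the mouse the single human gene SERPINA3, which encodes antichymotrypsin, is matched by a cluster of duplicated genes whose products inhibit different proteases. The endothelium of the marrow forms the sinusoids and capillaries through which blood cells leave, and irradiation damages it together with the blood cells.

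The series held 33 libraries in 11 groups of 3, from C57BL/6 mice 8 to 12 weeks old. Untreated wildtype femur and tibia gave LSK cells, lineage-negative cells (Lin-) and whole marrow cells (BMC). Bone EC were GFP+ endothelial cells of whole bone from untreated Cdh5-mTnG mice, a reporter driven by the endothelial gene Cdh5, and irradiated bone EC were the same sort after 9 Gy. Vav1 control EC and Vav1 DTX EC were GFP+ cells of whole bone, and both groups are labelled with Vav1-Cre, R26-DTR, Cdh5-mTnG and diphtheria toxin, so that only the sample titles and column names tell them apart. Vav1-Cre is active in blood cells, and DTR makes cells sensitive to the toxin. Apln+ EC were GFP+ cells of whole bone from Apln-CreERT2 R26-mTmG mice given tamoxifen, and diaphysis EC were GFP+ cells of the femur shaft from untreated Cdh5-mTnG mice. 9Gy1D EC were Tomato+/GFP+ bone marrow cells of Cdh5-mTnG mice after 9 Gy, and Esm1+ EC were Tomato+/GFP+ bone marrow cells of Esm1-CreER R26-mTmG mice given tamoxifen. The labels give no time after irradiation and do not say that replicates were separate animals, so p-values measure the spread between these samples, which may be technical.

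Recovered reads ranged from 1.55 to 12.29 M per library. No pan-endothelial marker of the 16 listed was at 0 in any endothelial group. Their summed share of all FPKM was 0.235 to 0.299% in bone EC, 0.625 to 0.798% in irradiated bone EC, 0.145 to 0.195% in Vav1 control EC and 0.197 to 0.517% in Vav1 DTX EC. In the other 4 endothelial groups it was 0.124 to 0.613% in Apln+ EC, 0.239 to 0.350% in diaphysis EC, 0.418 to 0.590% in 9Gy1D EC and 0.110 to 0.209% in Esm1+ EC. In BMC it was 0.005 to 0.006%. The 15 neutrophil markers took 10.2 to 11.1% in bone EC and 0.280 to 1.11% in irradiated bone EC, and in the other 6 endothelial groups their share lay between 7.47 and 23.4%. The part of these differing shares in the results below was not tested, and in bulk samples fewer cells of a type and less RNA per cell cannot be told apart. By a chi-square over genes, Vav1 DTX replicate 2, Apln+ replicate 1 and Lin- replicate 3 stood apart from their groups. Erythroid markers took 12.32% of FPKM in Lin- replicate 3 and 0.08054 and 0.08101% in the other Lin- libraries. Without it Mt1, Mt2, Lrg1, Serpina3g and Serpina3n kept their calls in Lin- against BMC, and Serpina3f did not. Esm1+ replicates 1 and 2 were far closer to each other, at 1.39 per degree of freedom, than to replicate 3, at 26.97 and 28.53. They were kept as separate samples, and counts with them averaged are given beside the gene lists.

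**Figure D1:**
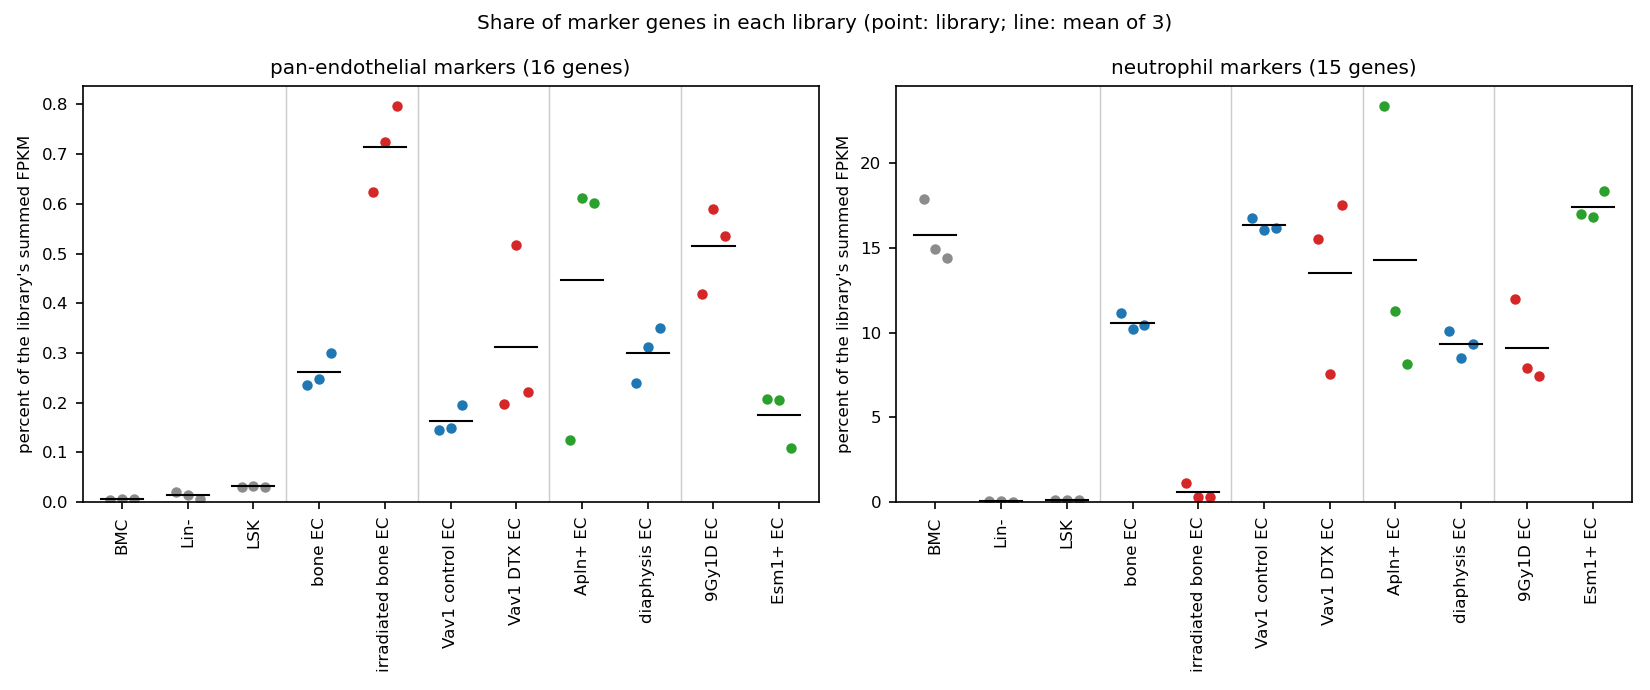
Percent of summed FPKM taken by 16 pan-endothelial markers and by 15 neutrophil markers in each library, with the 11 groups along the horizontal axis and 1 point per library. The 3 irradiated bone EC libraries hold the highest pan-endothelial share, 0.625 to 0.798%, and the lowest neutrophil share of the endothelial groups.

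Mt1 and Mt2, which lay 5.5 kb apart, and Serpina3f and Serpina3g, which lay 15.1 kb apart, varied together in the endothelial libraries (below), and their promoters are shown for that reason. All 9 genes were matched to RefSeq promoters of build GRCm38.p6, and the 250 bases upstream of the listed start are printed 5′ to 3′. Capitals mark matches to the metal response element core (TGCACNC or TGCGCNC) in the metallothionein genes, and to a STAT palindrome (TTCNNNGAA) or the NF-kappa B motif in the serpin genes, on either strand.
Mt2, chr8:94172368-94172617, plus strand: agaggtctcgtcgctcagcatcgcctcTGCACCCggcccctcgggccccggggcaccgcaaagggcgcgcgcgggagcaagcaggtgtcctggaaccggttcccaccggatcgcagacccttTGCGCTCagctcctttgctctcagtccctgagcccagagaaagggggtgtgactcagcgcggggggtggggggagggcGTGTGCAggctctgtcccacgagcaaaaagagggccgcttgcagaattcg
Mt1, chr8:94178839-94179088, plus strand: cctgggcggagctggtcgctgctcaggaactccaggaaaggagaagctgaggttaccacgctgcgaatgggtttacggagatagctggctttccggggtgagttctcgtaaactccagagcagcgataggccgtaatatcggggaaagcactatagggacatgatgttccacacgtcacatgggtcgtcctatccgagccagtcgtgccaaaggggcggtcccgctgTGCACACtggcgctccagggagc
Serpina3f, chr12:104214294-104214543, plus strand: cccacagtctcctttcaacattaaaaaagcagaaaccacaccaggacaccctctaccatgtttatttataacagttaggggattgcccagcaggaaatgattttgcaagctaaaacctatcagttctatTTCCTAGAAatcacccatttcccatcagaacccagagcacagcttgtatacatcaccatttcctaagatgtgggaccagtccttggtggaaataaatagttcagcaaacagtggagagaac
Serpina3g, chr12:104235897-104236146, plus strand: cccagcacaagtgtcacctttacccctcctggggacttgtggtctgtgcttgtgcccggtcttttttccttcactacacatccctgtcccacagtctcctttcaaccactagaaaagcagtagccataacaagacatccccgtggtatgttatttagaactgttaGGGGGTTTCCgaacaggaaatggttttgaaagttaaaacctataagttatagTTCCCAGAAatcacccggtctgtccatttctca
The Mt2 window held 3 metal response cores, 223, 128 and 50 bases before the start, and the Mt1 window held 1, 23 bases before it. The 50 bases after the listed Mt1 start held 2 more, and those after the Mt2 start 1 more. Whether the listed starts are those used in these cells was not tested, so the counts of the Mt1 and Mt2 windows are not compared. Each serpin window held 1 STAT palindrome, 121 bases before the start in Serpina3f and 33 in Serpina3g, and Serpina3g also held an NF-kappa B motif 85 bases before its start. In both windows the palindrome lies between the letters aaaacctat and atcaccc, so these matches in copied genes are not independent. Serpina3f had 2 listed promoters, and the first was used. A search for the C/EBP motif (TTGCNNAA) found matches 150 and 22 bases before the Serpina3f start and 12 before the Mt2 start, printed in lower case. The interferon-stimulated response motif and a glucocorticoid motif (AGAACA) had no match in these 4 windows. Of 27025 promoters of the same length, 10.2% held TGCACNC, 12.6% TGCGCNC, 7.18% the STAT palindrome, 3.75% the NF-kappa B motif, 9.55% the C/EBP motif, 3.04% the interferon motif and 16.2% the glucocorticoid motif. A match describes letters only and shows no binding.

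Of the 9 genes, 6 had every irradiated bone EC library above every bone EC library, the exceptions being Mt1, Mt2 and Serpina3n. In that comparison 22.5% of 13044 genes tested were called higher and 19.4% lower, and 29.6% had all irradiated libraries above all bone EC libraries. Nothing is read from the count, because this comparison chose the genes. Of all its calls 53.8% were higher, or 67.2% with TPM and 5.71% with each library scaled to its pan-endothelial markers. After blood cell ablation 8 of 9 genes had every Vav1 DTX library above every Vav1 control library, again without Serpina3n, where 11.3% of 11664 genes were called higher and 15% lower, and 22.7% had the libraries apart and higher. Of those calls 43% were higher, or 67.3% with TPM and 8.13% with pan-endothelial scaling. Calls here are limma adjusted p below 0.05, with Benjamini-Hochberg adjustment over all genes tested. The choice did not name 9Gy1D EC against Esm1+ EC, but 9Gy1D EC were irradiated too, so the calls may not be independent of the choice. There Serpina3f, Serpina3g, Tmem252 and Car4 were higher and Mt1 was lower. These 4 and 1 of 9 tested genes stand beside 20.6% of 11746 genes called higher and 23.1% called lower. Car4 passed the filter there only through 9Gy1D EC and could not have been called lower. With pan-endothelial scaling the same comparison gave 3 members higher and 4 lower. Of all calls there 47.2% were higher, 64.7% with TPM and 5.86% with pan-endothelial scaling. In Apln+ EC against diaphysis EC, Serpina3f and Serpina3g were lower and no member was higher, against 2.84% of 11889 genes called higher and 4.64% called lower. The share of higher calls was 38%, or 27.2% with TPM and 25.3% with pan-endothelial scaling.

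**Figure D2:**
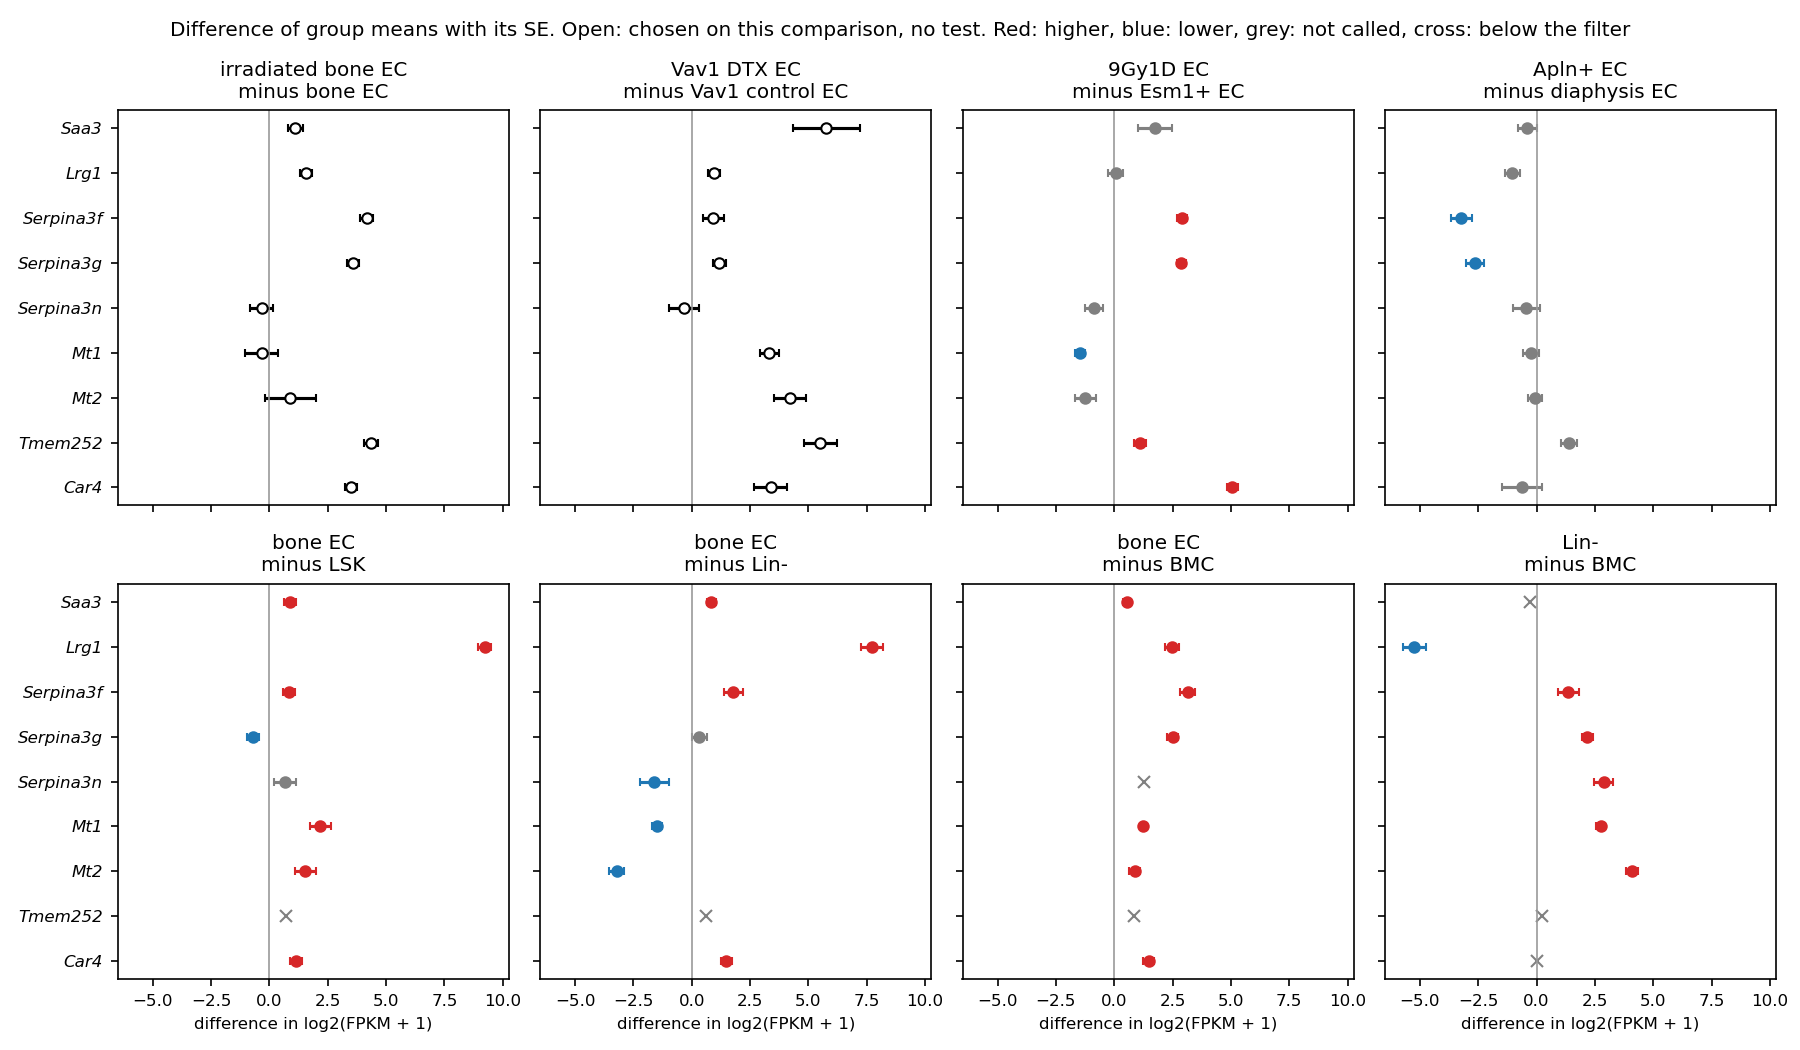
Difference in mean log2(FPKM + 1) with its SE for each gene in the 8 comparisons, n = 3 libraries per group. Open points belong to the 2 comparisons that chose the genes and carry no test, red is called higher, blue called lower, grey not called, and a cross marks a gene below the filter. Serpina3f and Serpina3g lie to the right in the irradiated and 9Gy1D panels and to the left in the Apln+ panel.

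Between resting bone EC and blood cells, the members were called in most comparisons, as were most genes. Against LSK, 6 of 8 tested members were higher in bone EC and 1 was lower, where 29.5% of 14321 genes were called higher and 30.6% lower. Against Lin-, 4 of 8 were higher and 3 lower (35.8% and 30.8% of 13255 genes), and against BMC, 7 of 7 were higher (35.8% and 34.6% of 13194 genes). In Lin- against BMC, 5 of 6 tested members were higher and 1 was lower (29.1% and 28.4% of 12428 genes). Against each blood group Saa3 and Car4 passed the filter (1 FPKM in 3 or more libraries) only through bone EC, as did Lrg1 against LSK. Serpina3n passed it in Lin- against BMC only through Lin-. These members could not have been called the other way, so nothing is read from their part of the counts. TPM scaling moved the share of higher calls from 49 to 17.6% against LSK, from 50.8 to 69.3% against BMC and from 50.6 to 60.9% in Lin- against BMC. Bone EC are also the reference in the irradiation comparison, so their low values for some members were partly fixed by the choice, and their comparisons with LSK, Lin- and BMC share these libraries. BMC and Lin- were made with the TruSeq stranded total RNA kit and all other groups with SMART-Seq v4 and Nextera XT, so kit and cell type cannot be told apart in bone EC against BMC or Lin-.

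**Figure D3:**
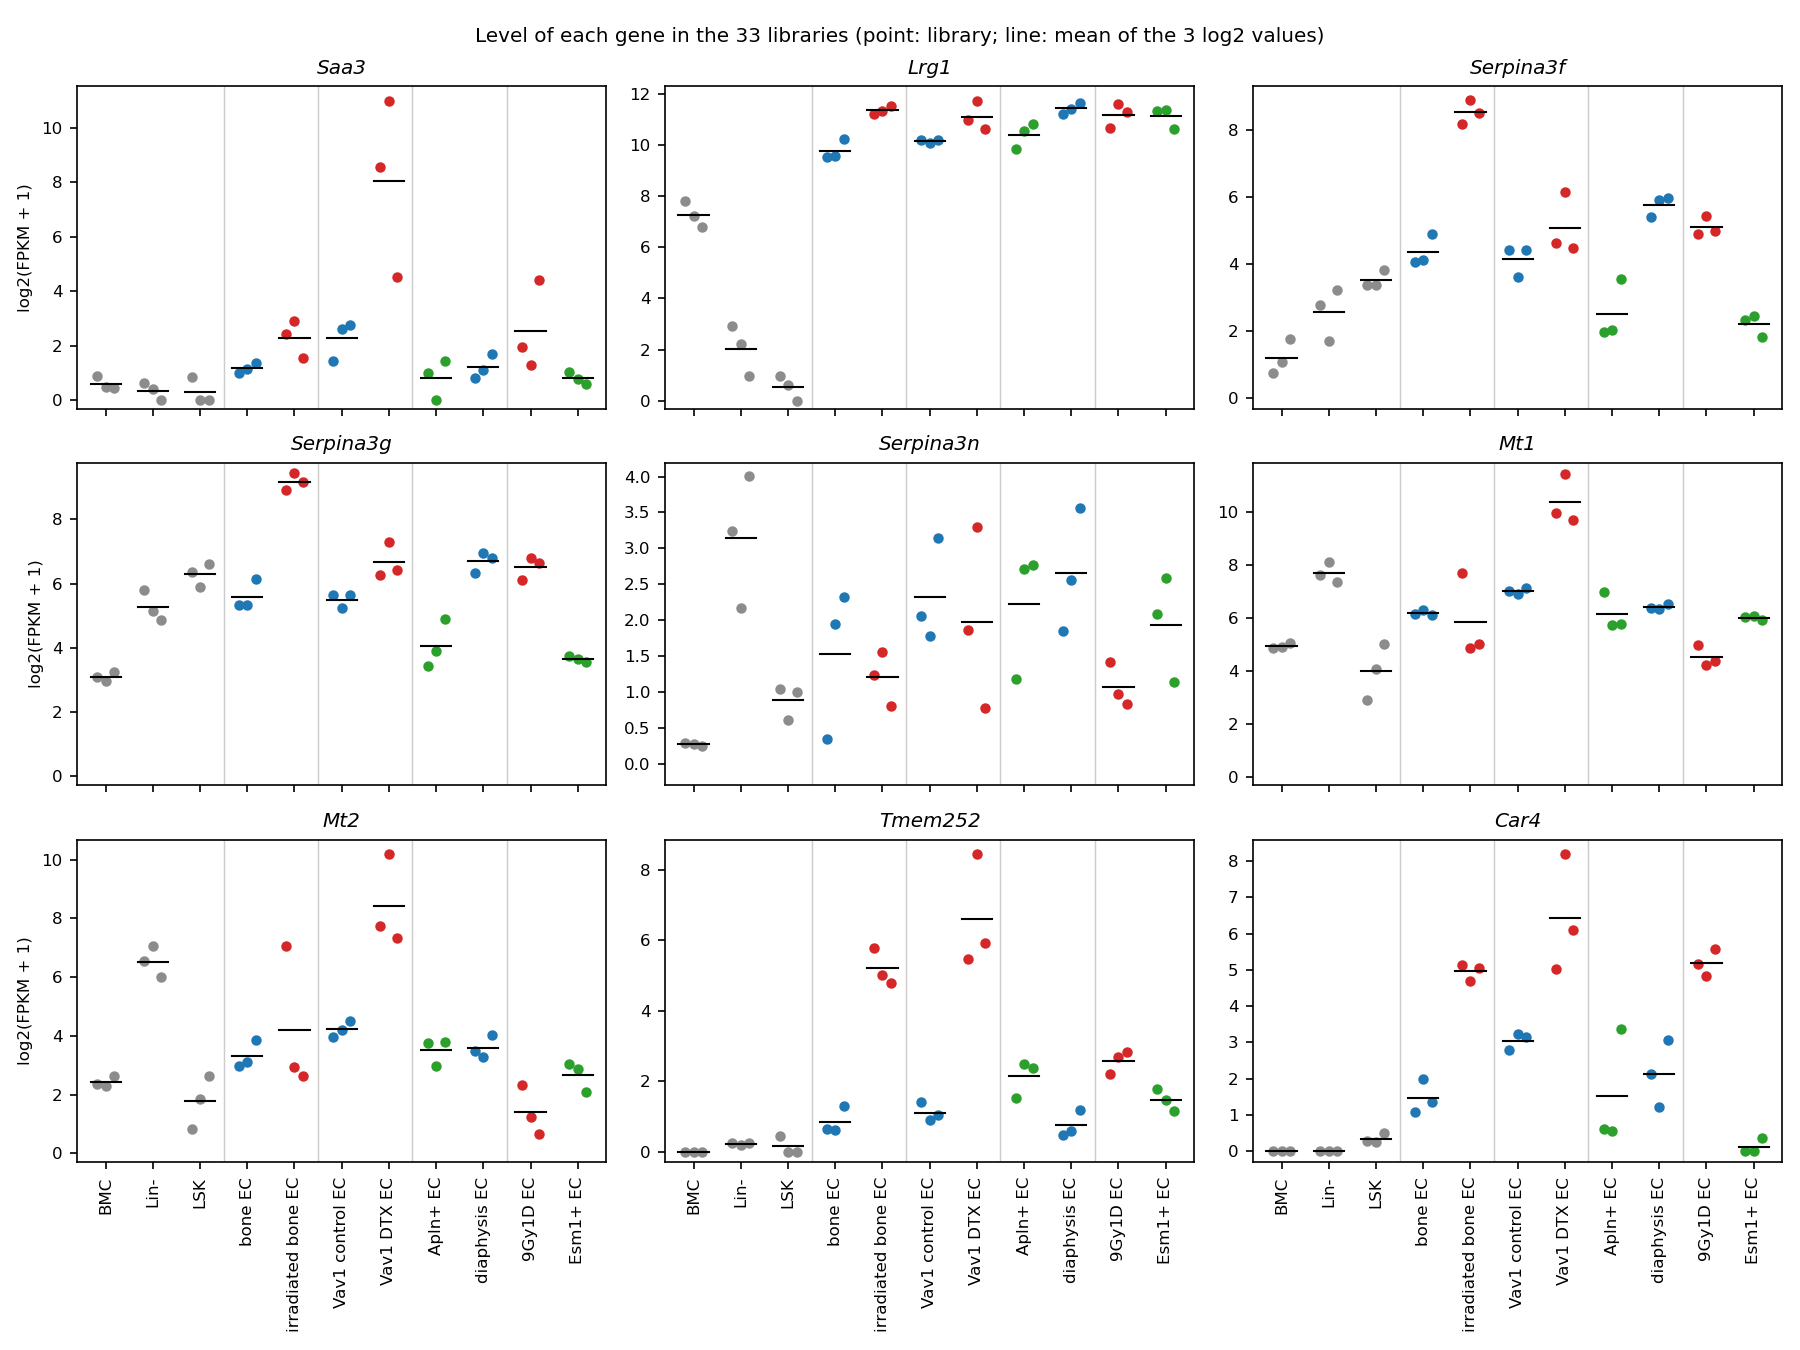
Level of each of the 9 genes, as log2(FPKM + 1), in all 33 libraries, with 1 point per library and a line at the mean of 3. Grey vertical lines separate the blood cell groups and the 4 pairs of endothelial groups. Lrg1 is high in all 8 endothelial groups, whereas Saa3, Tmem252 and Car4 are near 0 in blood cells and have their highest mean in Vav1 DTX EC.

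Saa3 (ENSMUSG00000040026.8, GRCm38 chr7:46711998-46715700, minus strand) encodes a serum amyloid A that is made mainly outside the liver, an apolipoprotein of the acute phase. It was close to undetected in resting endothelium, at 1.03, 1.23 and 1.56 FPKM in bone EC, from 2, 2 and 3 reads. In irradiated bone EC it stood at 4.35, 6.43 and 1.95 FPKM, from 9, 11 and 4 reads, a difference of 1.11 (SE 0.328). All 3 irradiated libraries were above the bone EC libraries, but on few reads.

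Saa3 was far higher after blood cell ablation. Vav1 control EC held 1.73, 5.07 and 5.77 FPKM and Vav1 DTX EC 381, 2019 and 22.2 FPKM, from 2621, 11110 and 121 reads. Every DTX library was above every control library, and the DTX libraries themselves spanned from 22.2 to 2019 FPKM. The group mean was 193-fold higher, and without replicate 2 it was 48.1-fold higher. In the 9Gy1D libraries Saa3 was 2.91, 1.44 and 20.2 FPKM, and in Esm1+ EC 1.08, 0.738 and 0.518 FPKM. The groups did not overlap, but the difference of 1.74 was not called (limma adjusted p = 0.091), and without 9Gy1D replicate 3 it was 0.81. Apln+ EC (0.994, 0 and 1.75 FPKM) and diaphysis EC (0.78, 1.16 and 2.28 FPKM) overlapped. In BMC, Lin- and LSK no library held over 2 recovered reads of Saa3. Its calls for bone EC against LSK, Lin- and BMC rest on at most 3 recovered reads per library, so no fold is given. Saa3 passed the filter there only through bone EC, so the direction was fixed.

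Lrg1 (ENSMUSG00000037095.8, chr17:56119678-56122001, minus strand) encodes a secreted leucine-rich glycoprotein that modifies TGF-beta signalling in endothelium through the co-receptor endoglin. Of the 9 genes it had the highest mean FPKM in each of the 8 endothelial groups. Bone EC held 726, 748 and 1193 FPKM and irradiated bone EC 2365, 2546 and 2894 FPKM. The irradiated libraries were all higher, 2.93-fold between means, with a difference of 1.58 (SE 0.25). With pan-endothelial scaling the difference was 0.52. Vav1 control EC held 1173, 1074 and 1172 FPKM and Vav1 DTX EC 2003, 3347 and 1576 FPKM, a 2.03-fold higher mean with no overlap.

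Untreated diaphysis EC had the highest Lrg1 mean of all groups, with 2355, 2714 and 3208 FPKM, in another table and from another sort than bone EC. Apln+ EC, measured with them, held 911, 1467 and 1777 FPKM, all below the diaphysis libraries. The difference of -1.04 was not called (limma adjusted p = 0.11), and without Apln+ replicate 1 it was -0.76 and called (adjusted p = 0.026). 9Gy1D EC held 1592, 3089.7 and 2502 FPKM and Esm1+ EC 2575, 2646 and 1563 FPKM, overlapping almost fully, with a difference of 0.07 (adjusted p = 0.88). That sign was not stable: with pan-endothelial scaling the difference was -1.25 (limma adjusted p = 0.0057).

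Among blood cells Lrg1 was found in BMC, which contain mature neutrophils, at 220.2, 149 and 110.3 FPKM. Lin- cells held 6.51, 3.7 and 0.958 FPKM and LSK cells 0.969, 0.535 and 0 FPKM. The Lin- mean was 43.0-fold lower than in BMC (log2 difference -5.24, limma adjusted p = 2.1e-04). Neutrophil markers took 14.4 to 17.9% of FPKM in BMC and 0.0108 to 0.0726% in Lin-, and their part in the Lrg1 level was not tested. Bone EC stood above each blood group, by 9.23 over LSK (limma adjusted p = 2.3e-07), 7.72 over Lin- (9e-06) and 2.49 over BMC (1.7e-04). Against LSK, Lrg1 passed the filter only through bone EC, so that direction was fixed.

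The Serpina3 genes lie in a cluster of 14 genes on chromosome 12. Serpina3f (ENSMUSG00000066363.12, chr12:104214544-104221129, plus strand) and Serpina3g (ENSMUSG00000041481.16, chr12:104236245-104241939, plus strand) are close copies, and Serpina3g is an inhibitor of cysteine cathepsins inside cells. Their transcripts were 71.4% identical, and 10.6% and 15.5% of their 50-base stretches also occur in other genes, so that counting could split a share of reads between copies. Serpina3n (ENSMUSG00000021091.8, chr12:104406729-104414329, plus strand), which inhibits granzyme B and neutrophil proteases, lies 164.8 kb from Serpina3g and shares 6.9% of its stretches. Its longest transcript was 71.8% identical to that of Serpina3f and 69.1% to that of Serpina3g, so it is about as close a copy. The 250 bases upstream were 60.6% identical between Serpina3f and Serpina3n, against 39.2% between Serpina3f and Serpina3g.

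Serpina3f held 15.6, 16.6 and 28.8 FPKM in bone EC and 289, 481 and 367 FPKM in irradiated bone EC. The lowest irradiated library was far above the highest bone EC library, the mean was 18.6-fold higher and the log2 difference was 4.18 (SE 0.278). Serpina3g held 39.1, 39 and 69.4 FPKM in bone EC and 484, 695 and 580.0 FPKM after irradiation. Its mean was 11.9-fold higher, with a log2 difference of 3.59 (SE 0.26). With pan-endothelial scaling the differences were 3.14 and 2.54.

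The pair was also higher in the other irradiated group, 9Gy1D EC, than in Esm1+ EC. The choice did not name this comparison, but it named rises after irradiation, so the calls may not be independent of it. Serpina3f held 29, 42.4 and 30.6 FPKM in 9Gy1D EC and 4.06, 4.51 and 2.58 FPKM in Esm1+ EC. The groups lay far apart, and the log2 difference was 2.90 (SE 0.222, limma adjusted p = 0.00016). Serpina3g held 67.4, 111 and 97.8 FPKM in 9Gy1D EC and 12.3, 11.5 and 10.6 FPKM in Esm1+ EC, a log2 difference of 2.88 (SE 0.194, limma adjusted p = 1e-04). These groups differ in genotype, tamoxifen and sort as well as in irradiation, and these causes cannot be told apart. Cell type markers differed too. Pan-endothelial markers were higher in 14 of 16, mural markers in 3 of 3 and megakaryocyte markers in 4 of 6. Osteoblast and cartilage markers were lower in 9 of 9 (0.0101 to 0.0499% of FPKM in 9Gy1D EC, 0.230 to 0.451% in Esm1+ EC). B cell markers were lower in 8 of 9, erythroid markers in 7 of 9 and neutrophil markers in 9 of 15. The part of all these in the serpin levels was not tested. The 9Gy1D levels of Serpina3f were near those of untreated diaphysis EC in another table, at 41.9, 59.6 and 61.6 FPKM, and below those of irradiated bone EC.

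In Apln+ EC both genes were low. Serpina3f held 2.94, 3.13 and 10.9 FPKM against 41.9 to 61.6 FPKM in diaphysis EC, a 9.61-fold lower mean (log2 difference -3.24, SE 0.448, limma adjusted p = 0.0095). Serpina3g held 9.65, 13.9 and 28.5 FPKM against 80.05, 122 and 110.0 FPKM, a 6.00-fold lower mean (log2 difference -2.63, SE 0.387, limma adjusted p = 0.012). Every Apln+ library was below every diaphysis library for both genes. Neither call held without diaphysis replicate 2 (limma adjusted p = 0.06 and 0.073) or replicate 3 (0.063 and 0.071), and Serpina3g was not called without Apln+ replicate 2 (0.053).

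After blood cell ablation the pair moved little beside irradiation. Serpina3f held 20.6, 11.4 and 20.5 FPKM in Vav1 control EC and 23.8, 69.9 and 21.5 FPKM in Vav1 DTX EC, a 2.193-fold higher mean that was 1.29-fold without replicate 2. Serpina3g held 48.5, 36.4 and 49 FPKM in controls and 76.2, 157 and 85.2 FPKM in DTX libraries, a 2.37-fold higher mean, 1.81-fold without replicate 2. The 2 comparisons come from different tables, and the difference between them was not tested.

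Blood progenitors also carried the pair, with Serpina3g above Serpina3f. Serpina3g held 81.1, 58.9 and 97.5 FPKM in LSK, 55, 34.4 and 28 FPKM in Lin- and 7.44, 6.74 and 8.41 FPKM in BMC. It was higher in Lin- than in BMC (log2 difference 2.18, limma adjusted p = 4.3e-04). Bone EC were lower than LSK with overlap (-0.70, limma adjusted p = 0.047), a call lost without bone EC replicate 1 or 2 or LSK replicate 1 or 3, and the difference to Lin- was not called (0.33, adjusted p = 0.39). Serpina3f was lower in blood cells, at 9.34 to 13.1 FPKM in LSK, 2.26 to 8.38 FPKM in Lin- and 0.704 to 2.44 FPKM in BMC. Bone EC stood above LSK by 0.84 (limma adjusted p = 0.017), above Lin- by 1.79 (0.0059) and above BMC by 3.145 (7.2e-05), and the call against LSK was lost without LSK replicate 1 or 2 (0.064 and 0.067). For Serpina3g the difference to BMC was 2.51 (limma adjusted p = 4.6e-05). Serpina3f was called higher in Lin- than in BMC (1.36, limma adjusted p = 0.033) although the libraries overlapped, and this call was lost without Lin- replicate 1 or 3, or BMC replicate 1 or 2.

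Serpina3n did not share the rise. It held 0.265, 2.85 and 4.01 FPKM in bone EC and 1.37, 1.96 and 0.754 FPKM after irradiation, and 3.17, 2.43 and 7.85 FPKM in Vav1 control EC against 2.65, 8.79 and 0.71 FPKM in Vav1 DTX EC. Both pairs of groups overlapped, with log2 differences of -0.33 (SE 0.501) and -0.35 (SE 0.641). Its highest mean, 9.0 FPKM, was in Lin-, with 8.45, 3.51 and 15 FPKM, against 0.223, 0.212 and 0.186 FPKM in BMC from 2 reads each (log2 difference 2.87, limma adjusted p = 0.0014). Serpina3n passed the filter there only through Lin-, so a lower call was not possible. Mesenchymal stromal markers took 0.149 to 0.620% of FPKM in Lin- and 0.00064 to 0.0027% in BMC, and their part in the Serpina3n levels was not tested. Against Lin-, bone EC were lower by the test, with overlap (-1.60, limma adjusted p = 0.049), a call lost without bone EC replicate 1 or 2 or Lin- replicate 1 or 3 (adjusted p from 0.081 to 0.14). Serpina3n was not called in 9Gy1D EC against Esm1+ EC (-0.86, limma adjusted p = 0.099) or in Apln+ EC against diaphysis EC (-0.43, adjusted p = 0.75).

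**Figure D4:**
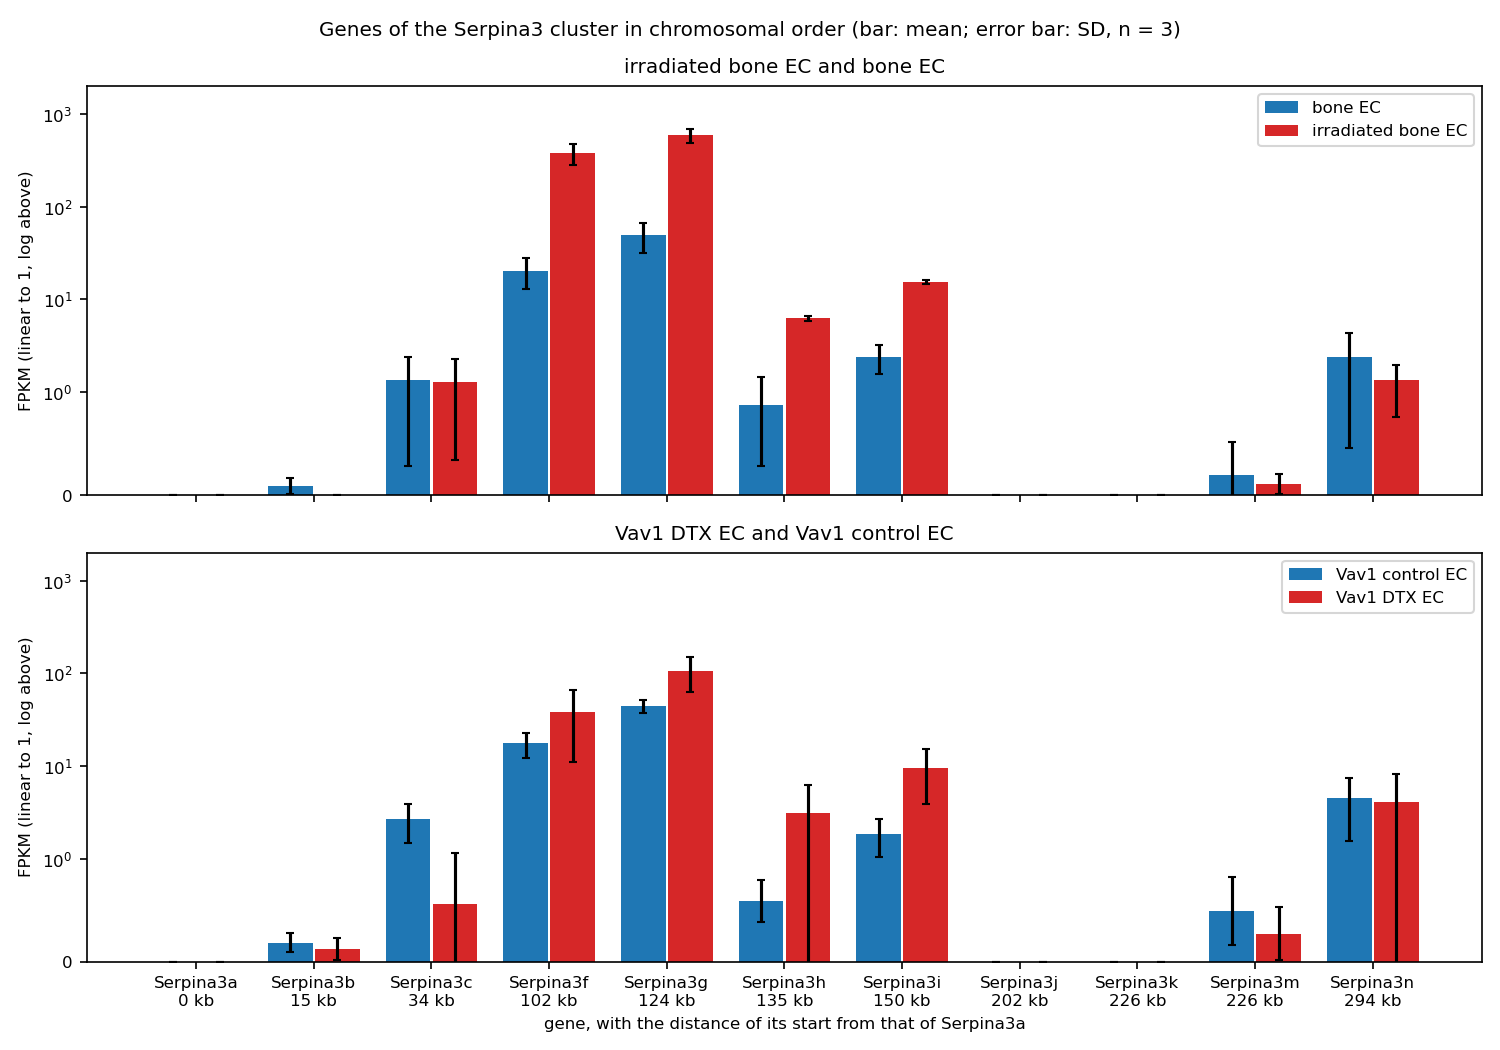
Mean FPKM ± SD (n = 3) of 11 Serpina3 cluster genes in chromosomal order, with the distance in kb from the start of Serpina3a, in irradiated and untreated bone EC (top) and in Vav1 DTX and control EC (bottom). The vertical axis is linear up to 1 FPKM and logarithmic above. Serpina3f, Serpina3g, Serpina3h and Serpina3i are higher in irradiated bone EC, and Serpina3n is not.

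The other genes of the cluster were tested in the same fits, but not independently of the members: 8.9% of the Serpina3g stretches also occur in Serpina3h and 6.8% in Serpina3i. Serpina3g stood far above both, and how many of their reads came from Serpina3g was not tested. Of 3 cluster genes that passed the filter in irradiated bone EC against bone EC, 2 were higher and none was lower. Of all genes tested there, 22.5% were called higher and 19.4% lower. Serpina3h rose from a mean of 0.870 to 6.225 FPKM (limma adjusted p = 7.2e-04) and Serpina3i from 2.40 to 15.4 FPKM (limma adjusted p = 2.8e-04). Both genes lie between Serpina3g and Serpina3n. After ablation 2 cluster genes were tested: Serpina3i rose to 9.48 FPKM (limma adjusted p = 0.016) and Serpina3c fell from 2.71 to 0.561 FPKM. In that comparison 11.3% of all genes were called higher and 15% lower. Serpina3i was also the only cluster gene tested in 9Gy1D EC against Esm1+ EC, where 20.6% of all genes were called higher. It was called higher, at a mean of 3.21 against 0.224 FPKM. It passed the filter only through 9Gy1D EC, so this direction was fixed and nothing is read from it. Serpina3a was listed at 0 in every library.

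Mt1 (ENSMUSG00000031765.8, chr8:94179082-94180327, plus strand) and Mt2 (ENSMUSG00000031762.7, chr8:94172664-94173568, plus strand) encode the main metallothioneins, which buffer zinc. Mt2 overlaps the annotated gene Gm45774, which shares 45.8% of its 50-base stretches, so its level is uncertain, whereas Mt1 shares none. In irradiated bone EC only replicate 1 was high. Mt1 held 69.9, 77.5 and 68.9 FPKM in bone EC and 207, 28.2 and 31.2 FPKM after irradiation. The other 2 irradiated libraries were below every bone EC library, at 0.412 of the bone EC mean. Mt2 held 6.88, 7.64 and 13.4 FPKM in bone EC and 131, 6.7 and 5.13 FPKM after irradiation, so that the 5.12-fold higher mean rests on replicate 1, which was 22.1-fold above the other 2. No other member was more than 1.85-fold higher in replicate 1 than in the other 2 irradiated libraries. Replicate 1 also held more osteoblast and cartilage markers (0.035% of FPKM, against 0.00761 and 0.00606%), mesenchymal stromal markers (0.0471%, against 0.0244 and 0.0201%) and neutrophil markers (1.11%, against 0.330 and 0.280%), and their part was not tested.

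After blood cell ablation both metallothioneins were high in all 3 libraries. Mt1 held 130.5, 119 and 139 FPKM in Vav1 control EC and 989, 2743 and 827 FPKM in Vav1 DTX EC, an 11.7-fold higher mean (log2 difference 3.33, SE 0.42). Mt2 held 14.7, 17.2 and 21.7 FPKM in controls and 215, 1176 and 161 FPKM in DTX libraries, a 29.0-fold higher mean (log2 difference 4.21, SE 0.686). No libraries overlapped, and without replicate 2 the means were 7.001-fold and 10.5-fold higher.

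In 9Gy1D EC the metallothioneins were low. Mt1 held 30.9, 17.6 and 19.8 FPKM against 64.6, 65.8 and 59.7 FPKM in Esm1+ EC, a 2.78-fold lower mean with no overlap (log2 difference -1.48, SE 0.205, limma adjusted p = 0.0015). Mt2 held 4.02, 1.38 and 0.584 FPKM, from 13, 5 and 2 reads, against 7.2, 6.35 and 3.22 FPKM in Esm1+ EC. Its difference of -1.25 was not called (limma adjusted p = 0.058). In Apln+ EC Mt1 held 124, 52.9 and 53.9 FPKM against 81.6, 79.8 and 92.6 FPKM in diaphysis EC, with overlap and no call (-0.25, limma adjusted p = 0.75); without Apln+ replicate 1, which was the high library, the difference was -0.65 and called (adjusted p = 0.0056). Mt2 held 12.6, 6.91 and 12.8 FPKM in Apln+ EC and 10.2, 8.67 and 15.4 FPKM in diaphysis EC, and was not called (-0.09, limma adjusted p = 0.91). The 9Gy1D levels of Mt1 were near those of irradiated bone EC replicates 2 and 3, in another table.

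Lin- cells had the highest group mean of both metallothioneins outside Vav1 DTX EC. Mt1 held 195, 273 and 163 FPKM in Lin-, 28.6, 28.7 and 32.4 FPKM in BMC and 6.47, 16.1 and 31.3 FPKM in LSK. Mt2 held 91.4, 132 and 62.8 FPKM in Lin-, 4.14, 3.93 and 5.19 FPKM in BMC and 0.785, 2.6 and 5.19 FPKM in LSK. All Lin- libraries were above all BMC libraries, with log2 differences of 2.74 for Mt1 (limma adjusted p = 7.3e-05) and 4.095 for Mt2 (4.7e-05). Lin- replicates 1, 2 and 3 also held 0.386, 0.620 and 0.149% of FPKM in mesenchymal stromal markers and 0.314, 0.354 and 0.0967% in osteoblast and cartilage markers, against at most 0.0027 and 0.0014% in BMC, and their part in the metallothionein levels was not tested. Bone EC were lower than Lin-, by -1.50 for Mt1 (limma adjusted p = 6.2e-04) and -3.21 for Mt2 (9.8e-05), and higher than BMC, by 1.24 (3.4e-05) and 0.88 (0.011). Against LSK, bone EC were 4.02-fold higher for Mt1 (limma adjusted p = 0.0033) and 3.26-fold higher for Mt2 (adjusted p = 0.016, and 0.055 without bone EC replicate 3).

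The balance of the pair was not constant. The ratio of Mt1 to Mt2 in FPKM averaged 8.48 in bone EC (5.15 to 10.15), 3.96 in irradiated bone EC (1.58 to 6.08), 7.43 in Vav1 control EC and 4.025 in Vav1 DTX EC (2.33 to 5.135). In Lin- it was 2.27 (2.08 to 2.59). The lowest single ratio was that of irradiated bone EC replicate 1. Serpina3g to Serpina3f was 2.42 ± 0.074 (SD, n = 3) in bone EC and 1.57 ± 0.115 (SD, n = 3) in irradiated bone EC, with no overlap (2.35 to 2.5 against 1.45 to 1.68). In blood groups it was higher, at 6.64 in BMC, 9.26 in Lin- and 7.44 in LSK. These ratios use the rows that chose the genes and are a description.

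**Figure D5:**
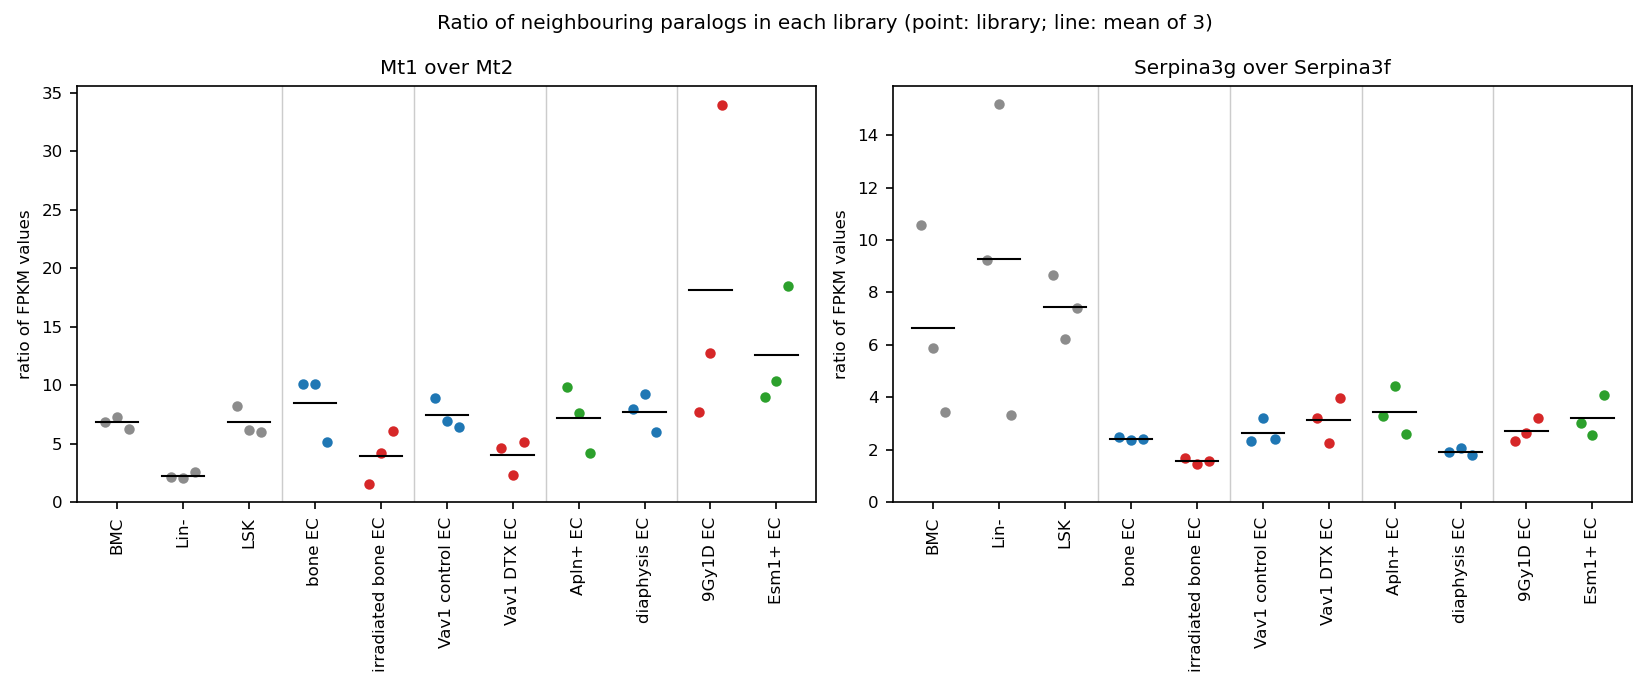
Ratio of Mt1 to Mt2 and of Serpina3g to Serpina3f in FPKM, with 1 point per library and the 11 groups along the horizontal axis. The Mt1 to Mt2 ratio is lowest in Lin-, irradiated bone EC and Vav1 DTX EC, and the Serpina3g to Serpina3f ratio is lowest in irradiated bone EC, at 1.45 to 1.68.

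Tmem252 (ENSMUSG00000048572.5, chr19:24674008-24682233, plus strand) encodes a transmembrane protein whose function is little known. It held 0.555, 0.531 and 1.46 FPKM in bone EC, from 5, 4 and 13 reads, and 53.8, 31.4 and 26.9 FPKM in irradiated bone EC. The mean was 44.1-fold higher and no library overlapped. Vav1 control EC held 1.63, 0.844 and 1.04 FPKM and Vav1 DTX EC 43, 345 and 60.1 FPKM, a 127-fold higher mean, 44.0-fold without replicate 2. 9Gy1D EC held 3.63, 5.48 and 6.07 FPKM and Esm1+ EC 2.44, 1.75 and 1.23 FPKM. That difference of 1.11 was called (SE 0.242, limma adjusted p = 0.0091), and it was 0.14 with pan-endothelial scaling (adjusted p = 0.64). In Apln+ EC Tmem252 held 1.88, 4.64 and 4.23 FPKM, all above the 0.378, 0.498 and 1.28 FPKM of diaphysis EC, but the difference of 1.39 was not called (limma adjusted p = 0.055), and without Apln+ replicate 1 it was 1.70 (adjusted p = 0.002). In BMC it was at 0 reads, which allows up to 0.234 to 0.281 FPKM for 3 reads, a limit for counting error only.

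Car4 (ENSMUSG00000000805.18, chr11:84957786-84966044, plus strand) encodes a carbonic anhydrase anchored to the surface of capillary endothelium. It held 1.11, 2.99 and 1.54 FPKM in bone EC, from 8, 18 and 11 reads, and 34, 25 and 32.2 FPKM in irradiated bone EC, a 16.15-fold higher mean with no overlap. Vav1 control EC held 5.89, 8.33 and 7.79 FPKM and Vav1 DTX EC 31.2, 289 and 67.8 FPKM, a 17.6-fold higher mean, 6.74-fold without replicate 2. In 9Gy1D EC it held 34.5, 27.4 and 47 FPKM, near the level of irradiated bone EC in another table, whereas Esm1+ EC held 0, 0 and 0.28 FPKM, from 0, 0 and 4 reads. The log2 difference there was 5.07 (SE 0.232, limma adjusted p = 2e-05), and no fold is given against so few reads. Car4 passed the filter only through 9Gy1D EC, so a lower call was not possible and nothing is read from the test. Apln+ EC held 0.537, 0.463 and 9.29 FPKM and diaphysis EC 3.37, 1.34 and 7.42 FPKM, with overlap and no call (-0.63, limma adjusted p = 0.75). In BMC and Lin- Car4 was at 0 reads, and LSK held 1, 1 and 2 reads. Bone EC were called higher than LSK, Lin- and BMC (log2 differences 1.13, 1.47 and 1.47; limma adjusted p = 0.0054, 0.001 and 8.9e-04), and no fold is given against these counts. Car4 passed the filter there only through bone EC, so the direction was fixed.

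Replicate 2 of Vav1 DTX EC was the highest for every member. Vav1 DTX replicate 2 exceeded the mean of the other 2 DTX libraries by 10.02-fold for Saa3, 6.695-fold for Tmem252, 6.26-fold for Mt2, 5.83-fold for Car4, 3.08-fold for Serpina3f and 3.02-fold for Mt1. Serpina3n was 5.23-fold higher there. Over all genes at 5 FPKM or more the median of this ratio was 0.927. That library also had the highest pan-endothelial share of its group (0.517%, against 0.1965 and 0.2214%) and the lowest neutrophil share (7.531%, against 15.52 and 17.55%), and their part in its high values was not tested.

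Across the 24 endothelial libraries, after the mean of each table was removed, Serpina3f and Serpina3g correlated at r = 0.989 and Mt1 and Mt2 at 0.93. Lrg1 and Serpina3f correlated at 0.82, Serpina3g and Car4 at 0.818, and Tmem252 with Saa3 at 0.751 and with Car4 at 0.737. Serpina3n stood apart, at -0.126 to 0.264 with the others. These values describe libraries that share groups and tables, and they carry no p. The libraries include those on which the members were chosen, so correlations between members are partly fixed by the choice. Without Vav1 DTX replicate 2, Tmem252 correlated with Saa3 at 0.646 and with Car4 at 0.684, and Mt1 with Mt2 at 0.903. Lrg1 with Serpina3f was then 0.819 and Serpina3g with Car4 0.823. Among 8810 other genes, those with the pattern most like Serpina3f were Sgk2, Tpp1 and Cfb (r = 0.957, 0.954 and 0.954), and for Serpina3g Sgk2, Vta1 and Fgf23 (0.97, 0.967 and 0.967). Car4 was most like Kcna5, Cd36 and Apol10b (0.968, 0.965 and 0.949), and Tmem252 most like Slc10a6, Lbp and Qsox1 (0.926, 0.918 and 0.917). Saa3 was most like Crybb3, Csf3 and Gpnmb (0.875, 0.869 and 0.853), and Mt2 most like Sod2, Cxcl3 and Csf3 (0.871, 0.864 and 0.843). Without Vav1 DTX replicate 2 these values were 0.799, 0.779 and 0.854 for Saa3 and 0.826, 0.795 and 0.762 for Mt2. Mt1 was most like Gnl3, Cxcl3 and Ggnbp2 (0.864, 0.835 and 0.823), Lrg1 most like Slc25a10, Laptm4b and Mvp (0.917, 0.91 and 0.909), and Serpina3n only loosely like Ptpn11, Htra1 and Nupr1 (0.76, 0.73 and 0.679).

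The other genes of the pathways behind these members were tested in the same fits, where 22.5% of all genes were called higher and 19.4% lower after irradiation. Other acute phase genes split after irradiation: 5 of 13 tested were higher and 5 lower in irradiated bone EC (list median -0.31, all genes 0.06), and 2 higher and 7 lower with pan-endothelial scaling. Cfb, a complement factor, rose from 2.77 ± 0.628 to 18.4 ± 2.74 FPKM (SD, n = 3; limma adjusted p = 0.00025), and Lbp, the endotoxin-binding protein, from 18.0 ± 2.69 to 46.4 ± 9.19 FPKM (adjusted p = 0.0016). Lcn2, which neutrophils carry, fell from a mean of 935 to 72.6 FPKM, beside the fall in neutrophil markers, of which 15 of 15 were lower. Of the metallothionein and zinc transport genes other than the members, 8 of 18 were higher and none lower (median 0.52), but with pan-endothelial scaling 1 was higher and 7 were lower. The zinc importer Slc39a8 rose from 8.17 ± 1.9 to 42.55 ± 9.76 FPKM (limma adjusted p = 0.00043).

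Of the IL-6 and IL-1 family ligands, 1 of 7 was higher and 4 were lower in irradiated bone EC. Lif rose from 0.453 ± 0.143 to 6.39 ± 1.82 FPKM (SD, n = 3; limma adjusted p = 0.00034) and Il6 fell from 18.9 ± 0.823 to 3.27 ± 1.52 FPKM (adjusted p = 0.00059). Of the receptors 4 of 9 were higher and 3 lower, or 2 and 4 with pan-endothelial scaling. The higher ones included the shared chain Il6st at 340.4 ± 129 against 70.5 ± 12.3 FPKM (limma adjusted p = 0.0017). Of the STAT3, C/EBP and NF-kappa B factors and feedback genes, 6 of 19 were higher and 2 lower (median 0.2), and 1 higher and 13 lower with pan-endothelial scaling. Interferon gamma response genes were higher in 13 of 19 and lower in 3 (median 1.68), and with pan-endothelial scaling 10 and 5; Cxcl9, a chemokine, rose from 15.1 ± 6.77 to 312 ± 56.6 FPKM. Of the glucocorticoid response genes 7 of 11 were higher and 2 lower, and 2 and 3 with that scaling. Sgk1 rose from 59.9 ± 7.7 to 245 ± 24.4 FPKM and Fkbp5 from 10.05 ± 1.91 to 30.3 ± 2.13 FPKM (limma adjusted p = 0.00025 and 0.00059). Of the TGF-beta and ALK1 genes 10 of 14 were higher and none lower (median 1.05), and 2 higher and 3 lower with that scaling. Eng, the co-receptor of the Lrg1 product, rose from 123 ± 19.5 to 532 ± 115 FPKM (limma adjusted p = 0.00047). Capillary genes were higher in 7 of 10 and lower in 1, or 4 and 2 with that scaling, and pan-endothelial markers, the list that scaling uses, were higher in 14 of 16.

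After blood cell ablation the counts stand beside the 11.3% and 15% of all genes called higher and lower there. Acute phase genes were higher in 1 of 11 and lower in 3, or lower in 5 without Vav1 DTX replicate 2, and Lbp rose from 22.8 ± 2.56 to 50.9 ± 4.48 FPKM (SD, n = 3; limma adjusted p = 0.0013). Zinc genes were higher in 3 of 18 and lower in 1, with TPM 6 and 0, and without Vav1 DTX replicate 2, 4 and 3. Of the ligands 2 of 7 were higher and 2 lower, and Tnf rose from 21.1 ± 3.17 to 48.65 ± 5.42 FPKM (limma adjusted p = 0.0019). Csf3, a growth factor for neutrophils, averaged 122 ± 153 FPKM, with libraries from 8.153 to 295.9, against 1.045 (limma adjusted p = 0.019). Interferon gamma genes were lower in 7 of 18 and higher in none (median -0.53, all genes 0.03), against 13 of 19 higher after irradiation, in separate tables and with no test of the difference. Without Vav1 DTX replicate 2 they were lower in 15. Markers of several blood cell types were called lower in the same comparison. These were 8 of 9 tested for monocytes and macrophages, 6 of 8 for T and NK cells, 9 of 9 for B cells and 9 of 9 for the erythroid line. Neutrophil markers were lower in 5 of 15 and higher in 2, with 7.531 to 17.55% of FPKM in DTX libraries against 16.06 to 16.79% in controls. The summed T and NK share overlapped, at 0.0234 to 0.0464% against 0.0275 to 0.0283%. The part of these markers in the interferon gamma genes was not tested. Glucocorticoid genes were higher in 3 of 10 and lower in 1, with Fkbp5 at 23.4 ± 2.55 against 8.25 ± 0.91 FPKM (limma adjusted p = 0.00064). In the STAT3, C/EBP and NF-kappa B list 1 of 19 was higher and 2 lower, and without DTX replicate 2, 1 and 6. Pan-endothelial markers were higher in none of 16 and lower in none, and TGF-beta genes in 0 and 1 of 13, or 4 and 1 with TPM scaling.

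In 9Gy1D EC against Esm1+ EC the list counts stand beside 20.6% of all genes called higher and 23.1% called lower. Acute phase genes were higher in 4 of 11 and lower in 4, zinc genes in 4 and 1 of 18, receptors in 6 and 2 of 10, interferon gamma genes in 13 and 3 of 18, glucocorticoid genes in 7 and 0 of 10 and TGF-beta genes in 11 and 0 of 14. With pan-endothelial scaling the counts were 3 and 7 for acute phase genes, 0 and 11 for zinc genes, 3 and 5 for receptors, 4 and 5 for interferon gamma genes, 2 and 3 for glucocorticoid genes and 5 and 1 for TGF-beta genes. With Esm1+ replicates 1 and 2 averaged the counts were 4 and 4 for acute phase genes, 3 and 1 for zinc genes, 5 and 1 for receptors, 12 and 2 for interferon gamma genes, 5 and 0 for glucocorticoid genes and 9 and 0 for TGF-beta genes. Slc39a8 was higher, at 14.5 ± 3.3 against 3.87 ± 1.2 FPKM (SD, n = 3; limma adjusted p = 0.0019). In Apln+ EC against diaphysis EC, 2.84% of all genes were called higher and 4.64% lower. Acute phase genes were higher there in 1 of 12 and lower in 5, interferon gamma genes in 0 and 7 of 18 and receptors in 0 and 3 of 10. With pan-endothelial scaling these counts were 0 and 5, 0 and 4, and 0 and 4. Cfb was lower, at 0.42 against 7.655 FPKM (limma adjusted p = 0.0013), as were Serpina3f and Serpina3g. Without Apln+ replicate 1 the interferon gamma count was 1 and 11, and that of pan-endothelial genes was 13 and 0 against 0 and 0.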

How the data were processed

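RNA was sequenced from 33 sorted samples in 11 groups of 3. FPKM values per gene were deposited by the authors in 4 tables, normalized separately; per the submitters' processing notes the build named is mm10, and the tools named are DESeq2 1.18.1, HTSeq 0.6.1, TopHat2 2.1.1 and bcl2fastq 2.19.1.403. Of 38926 genes per table, 27 whose names had turned into dates were left out. FPKM steps gave whole reads for 100% of the 38899 genes, within 0.005 of a whole number (0.0005 below 500 reads). For genes whose step did not match a GENCODE exon length, the shortest length giving whole reads was used, so their reads are a minimum. Among the members these genes are Saa3, Lrg1, Mt1, Mt2 and Tmem252. Floors of 3 reads cover counting error only. Recovered reads were from 0.677 (LSK) to 1.178 (BMC) of the library total implied by the FPKM values, so that total was not the sum of reads.

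Groups were compared within a table by limma 3.58.1 (R 4.3.3; lmFit and eBayes with trend) on log2(FPKM + 1) of the 6 libraries, two-sided, for genes that reached 1 FPKM in 3 or more libraries, with Benjamini-Hochberg adjustment and a threshold of 0.05. Fold changes are ratios of mean FPKM. The scripts (Python 3.11.15) were tested on simulated data. The members, lists and tests were chosen with earlier results of these data known. Named genes are the 9 members, up to 3 called genes of each list and direction with the largest difference, where the libraries of the groups lay apart and the higher mean reached 5 FPKM (a selection of these is printed, and other cluster genes are added), and the 3 genes with the highest correlation to each member over 24 endothelial libraries, among genes with at least 5 FPKM in 3 of them. Pan-endothelial scaling divides each library by the level of 16 markers and assumes that these do not change per endothelial cell. Other pseudocounts, filters, scalings and fits, and leaving out each library, were tried. Protein sequences were not used here.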

Additional observations from a re-analysis of the deposited data

How the results depend on the processing

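The number of members called stayed within 1.5 times the reported count in 9Gy1D EC against Esm1+ EC and in Lin- against BMC under every alternative. It moved in Apln+ EC against diaphysis EC from 2 to between 0 and 5 when single libraries were left out, in bone EC against LSK from 7 to 4 with TPM, against Lin- from 7 to 4 with a minimum mean of 5 FPKM (fewer genes tested), and against BMC from 7 to 4 with all libraries of the table in the fit. Apart from the change in genes tested, the cause was not tested. Signs turned for Lrg1 in 9Gy1D EC against Esm1+ EC (-1.25 with pan-endothelial scaling, -0.14 without 9Gy1D replicate 2, -0.18 without Esm1+ replicate 3) and, in Apln+ EC against diaphysis EC, for Serpina3n (0.09 without Apln+ replicate 1, 0.02 without diaphysis replicate 3), Saa3 (0.01 without Apln+ replicate 2) and Mt2 (0.18 without Apln+ replicate 2, 0.13 without diaphysis replicate 3); none of these was called as reported. With single libraries left out these ranged from -0.18 to 0.34 for Lrg1, -0.72 to 0.01 for Saa3, -0.25 to 0.18 for Mt2 and -0.84 to 0.09 for Serpina3n. In the comparisons that chose the members, where members were not tested, signs turned after irradiation for Mt2 (-0.53 without irradiated replicate 1, -0.05 with pan-endothelial scaling), Mt1 (0.17 and 0.10 without irradiated replicates 2 and 3) and Serpina3n (0.06 without bone EC replicate 3), and after ablation for Serpina3n (0.25 without DTX replicate 3, 0.06 without control replicate 3). With Esm1+ replicates 1 and 2 averaged, chosen after seeing the data, the count of members stayed at 5.

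Counts over all genes moved with pan-endothelial scaling from 5463 to 9033 after irradiation, from 3065 to 1550 after ablation, from 5133 to 8295 in 9Gy1D EC and from 890 to 545 in Apln+ EC, where the median gene shifted by -0.917, -0.338, -1.148 and -0.585. TPM shifted the median gene by 0.254, 0.247, 0.249 and -0.15 in these comparisons and by -0.684, 0.19, 0.405 and 0.218 in bone EC against LSK, Lin- and BMC and Lin- against BMC, and moved the count against LSK from 8608 to 13810. With a minimum mean of 5 FPKM the counts were 445 in Apln+ EC and 5083, 5624 and 6069 in bone EC against LSK, Lin- and BMC (890, 8608, 8822 and 9287 as reported). Without Vav1 DTX replicate 2 the count after ablation was 4782, and without control replicates 1657, 1680 and 1710. Without Apln+ replicates 1, 2 and 3 it was 3989, 403 and 584, and without diaphysis replicates 342, 312 and 293. Serpina3f, Serpina3g, Saa3 and Mt2 against LSK, Serpina3n against Lin-, Saa3 against BMC and Serpina3f in Lin- against BMC each lost their call under several alternatives.

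Pairing by replicate number was not seen throughout any comparison: in none did all same-numbered samples correlate above 0.1 in their deviations (range -0.219 to 0.332). In Apln+ EC against diaphysis EC, replicates 1 and 3 correlated at 0.332 and 0.297, each best with its own number. Deviations from a mean of 3 libraries cannot settle whether samples shared a batch. With a replicate block, 6 members were called in 9Gy1D EC against Esm1+ EC (Mt2 added, limma adjusted p = 0.013), 3 in Apln+ EC against diaphysis EC (Tmem252 added, 0.033), and 6 in bone EC against BMC (Saa3 lost, 0.052); the other member counts were the same. Saa3, Tmem252 and Car4 had at most 3 recovered reads in any blood cell library, and for Saa3 and Tmem252 recovered reads are a minimum. Recovered reads were 1.55 to 1.87 M in LSK, 5.1 to 6.4 M in BMC and Lin-, and 2.72 to 3.26 M in bone EC.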
